A study of Arabidopsis thaliana with 6 samples.

Results

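The LBD genes LBD8, LBD25, LBD37, LBD38, LBD39, LBD40, LBD41 and LBD42 of Arabidopsis thaliana, members of the LATERAL ORGAN BOUNDARIES DOMAIN family of transcription factors, were followed in endosperm. They were picked by locus identifier, 8 of the 33602 loci in the deposited table and 8 of the 43 genes of the family, and their levels in these libraries were known when they were picked. Their differences between the crosses are therefore given as a description, with no test. The study measured poly(A) RNA of endosperm nuclei 4 days after pollination in both directions of a cross between TEmob and Landsberg erecta (Ler). Nuclei were purified by INTACT, which captures nuclei that carry a tagged envelope protein. Cm x L had the Columbia-0 TEmob line as mother and Ler as father, with 3 libraries. In L x Cm, also with 3 libraries, the mother was the stamenless pistillata mutant pi-1 in Ler and the father was TEmob.

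TEmob is a single Columbia line whose name refers to transposon mobilization. It was raised from seeds sown on α-amanitin, an RNA polymerase inhibitor, and 40 µM zebularine, an inhibitor of DNA methylation, then held in the dark at 37 °C. It was crossed to a cenh3 tailswap line, which yields haploid offspring, and made diploid again with colchicine. Every library carries TEmob on one side of the cross, and endosperm of untreated Columbia was not analysed here. The INTACT tag came with TEmob, so it was maternal in Cm x L and paternal in L x Cm. The direction of the cross, the accession that gives the larger maternal dose, the pi-1 background of the mother and the origin of the tag therefore cannot be told apart. The labels do not say whether the numbered libraries came from separate plants, so p-values measure only how far these samples spread, and that spread may be technical.

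LBD proteins are plant transcription factors that share a cysteine-rich DNA-binding motif, the C block, at the start of the LOB domain. Most belong to class I, which also carries a leucine repeat for pairing and includes regulators of organ boundaries, lateral roots and pollen. LBD37 to LBD42 form class II, which lacks a complete leucine repeat. LBD37, LBD38 and LBD39 are known as repressors of anthocyanin synthesis and of nitrogen-responsive genes, and LBD41 is known as a gene induced by low oxygen. Endosperm is the tissue of the seed that nourishes the embryo, in which maternal genomes outnumber paternal ones.

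The coding sequence of the C block is shown for the 8 genes and for LBD5, a close relative of LBD8, because it is the part of the family that can be set side by side across both classes. The sequences are from RefSeq TAIR10.1 and run 5′ to 3′ on the coding strand; capitals mark the codons of the 4 cysteines, which are spaced by 2, 6 and 3 residues.
LBD8: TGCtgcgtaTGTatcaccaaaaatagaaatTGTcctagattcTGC
LBD5: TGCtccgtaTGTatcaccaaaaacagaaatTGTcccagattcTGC
LBD25: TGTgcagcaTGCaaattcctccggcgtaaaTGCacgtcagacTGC
LBD37: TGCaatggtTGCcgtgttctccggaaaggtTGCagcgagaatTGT
LBD38: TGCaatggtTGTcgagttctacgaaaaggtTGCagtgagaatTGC
LBD39: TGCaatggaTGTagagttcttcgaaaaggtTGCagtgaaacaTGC
LBD40: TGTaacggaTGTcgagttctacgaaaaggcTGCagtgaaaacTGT
LBD41: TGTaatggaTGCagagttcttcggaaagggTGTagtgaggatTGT
LBD42: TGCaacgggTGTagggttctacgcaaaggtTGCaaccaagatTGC
They lie at chr2:8453257-8453301 (LBD8, plus strand), chr1:13422594-13422638 (LBD5, plus), chr3:10239984-10240028 (LBD25, plus), chr5:26905365-26905409 (LBD37, minus), chr3:18514471-18514515 (LBD38, plus), chr4:17640459-17640503 (LBD39, minus), chr1:25053813-25053857 (LBD40, plus), chr3:537594-537638 (LBD41, minus) and chr1:25707045-25707089 (LBD42, plus). The deposited table holds no coordinates, and these are positions in RefSeq TAIR10.1. All 8 genes and 42 of the 43 family genes encode the motif, which LBD3 did not match with this spacing. It starts at residue 10 in LBD8 and LBD5 and at residue 40 in LBD25. The repeat of 4 leucines with 6, 3 and 6 residues between them was found in 11 of 43 family proteins and, of the 8, in LBD25 alone. Repeats with another residue at any of these 4 positions were not searched, so the count is not a count of class I proteins.

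The translated coding sequences fell into groups of unequal size. LBD37 and LBD38 were identical at 196 of 242 aligned residues (81.0%), and LBD39 was 65.9% identical to LBD38 and 63.3% to LBD37. LBD40 was 68.1% identical to LBD41 and 62.1% to LBD42. LBD8, a short protein of 120 residues, was 16.3% to 22.1% identical to the class II proteins and 84.2% identical to LBD5, a protein of 122 residues. LBD25, of 159 residues, was no more than 27.6% identical to any of the other 7, and 40.9% identical to LBD20. Exact matches to relatives were limited in length: the longest run shared by the LBD8 and LBD5 transcripts was 34 bases. None of the 332 windows of 50 bases in LBD8 exons occurred elsewhere in the reference genome. The coding bases of LBD8 and LBD5 were 91.5% identical (332 of 363), and matches with mismatches or in Ler sequence were not examined.

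**Figure D1:**
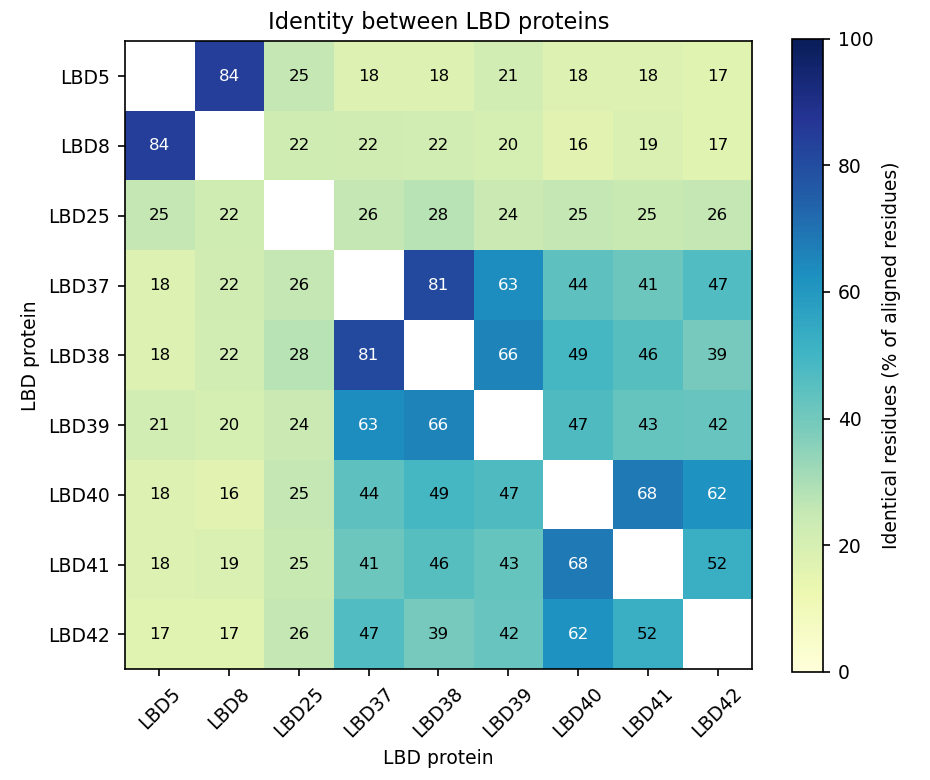
Identity between the 8 LBD proteins and LBD5, as percent of aligned residues, from translated RefSeq TAIR10.1 coding sequences; both axes list proteins and the colour gives the percentage. LBD8 pairs with LBD5 at 84.2%, LBD37 with LBD38 at 81.0%, and LBD40 with LBD41 at 68.1%.

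By replicate number, the libraries of Cm x L held 29.2, 23.6 and 22.2 M reads and those of L x Cm 27.2, 21.7 and 21.2 M, as recovered from the steps between low values. RPKM is a read number divided by gene length in kilobases and by M reads of the library, and an RPKM of 0.0342 to 0.0471 stands for 1 read on a 1 kb transcript. Correlations across all loci were 0.903 to 0.977 within a cross and 0.831 to 0.883 between crosses. Cm x L replicate 3 listed 10084 loci at 0, against 1005 to 5036 in the other 5 libraries, and it stood apart for several of the genes below. All 9 endosperm markers were detected in every library, with summed levels of 304, 293 and 385 RPKM in Cm x L and 473, 451 and 513 RPKM in L x Cm. All 13 seed coat markers were also detected in every library. Their sums, given below, exceeded the endosperm sums in every library but Cm x L replicate 1. The 2 lists differ in genes and in size, so the sums do not give shares of tissue. Fewer nuclei of a type and less RNA per nucleus cannot be told apart in these bulk samples.

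By level, 3 of the 8 were among the more abundant family genes of these endosperm nuclei, and the other 5 were low. LBD8, LBD42 and LBD41 ranked 2, 4 and 6 of the 43 family genes by mean RPKM over the 6 libraries. LBD40 ranked 10 and LBD37 ranked 12, while LBD38, LBD39 and LBD25 were lower still. LBD20, LBD35, LBD5, LBD30, LBD18 and LBD15, none of them among the 8, had higher means than LBD40. The 8 genes gave 46.4%, 43.5% and 28.8% of the summed RPKM of the family in Cm x L, and 48.5%, 33.6% and 34.9% in L x Cm. Those shares overlapped between directions, while the shares of LBD42 and LBD8 did not overlap. LBD42 gave 39.5%, 33.2% and 8.19% of the family sum in Cm x L and 4.03%, 1.57% and 1.58% in L x Cm. LBD8 gave 1.20%, 1.21% and 7.55% in Cm x L and 35.2%, 21.6% and 25.7% in L x Cm.

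**Figure D2:**
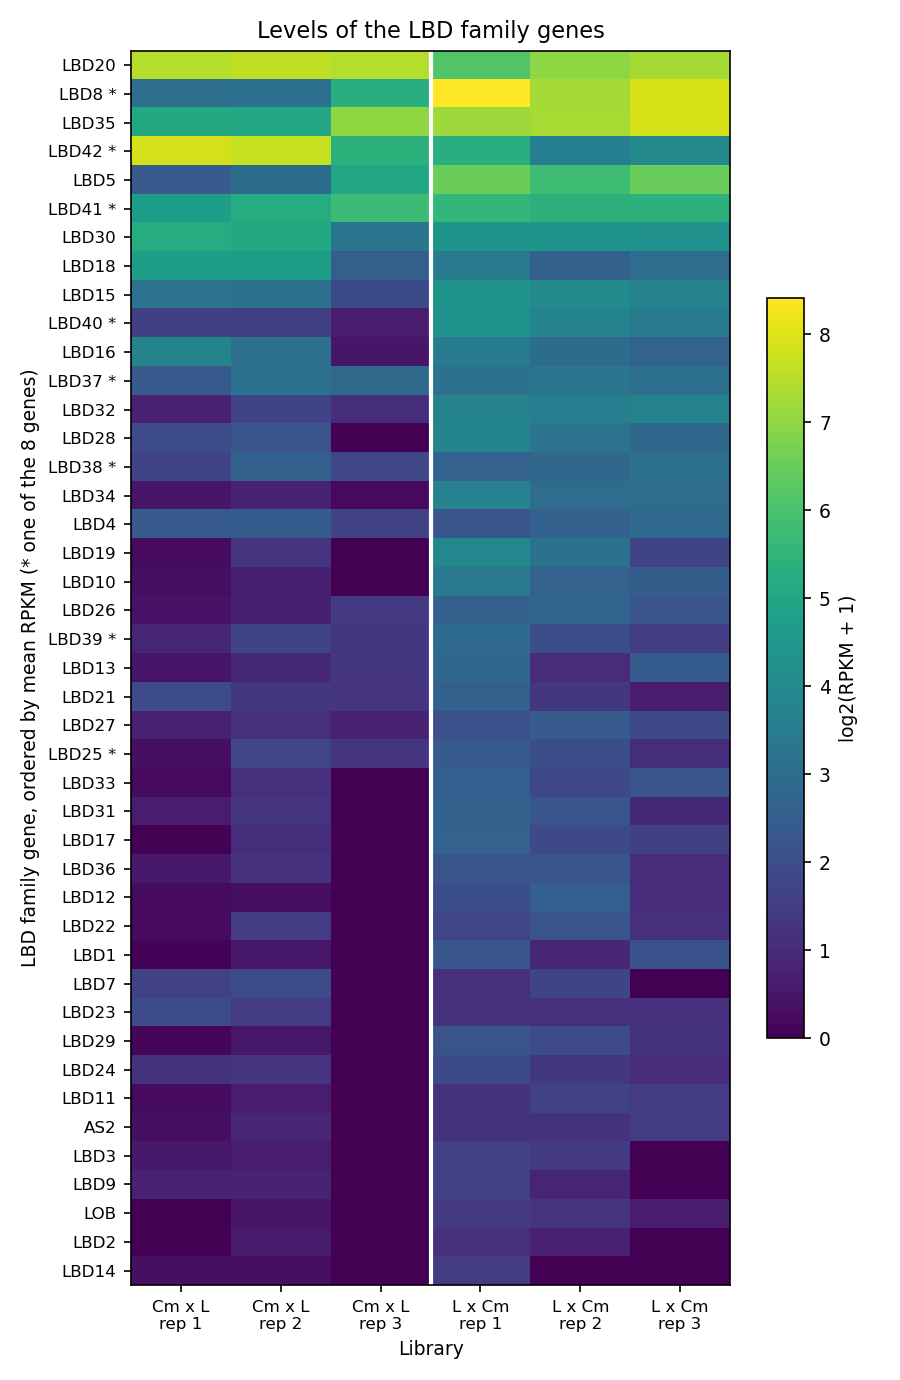
Levels of the 43 LBD family genes, as log2(RPKM + 1), with genes ordered down the page by mean RPKM and the 3 Cm x L libraries left of the 3 L x Cm libraries; asterisks mark the 8 genes. LBD8 is bright in L x Cm and LBD42 in Cm x L replicates 1 and 2, and Cm x L replicate 3 is dark over the lower rows, where 21 of the 35 other family genes were listed at 0.

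LBD8 (AT2G19510, chr2:8453200-8453713, plus strand) was the most abundant of the 8 in L x Cm and the one with the largest difference between directions. It had 7.20, 7.37 and 38.5 RPKM in Cm x L, against 341, 156 and 237 RPKM in L x Cm. The crosses did not overlap, and the highest Cm x L library, replicate 3, was still well below the lowest L x Cm library. The means were 17.7 ± 18.0 RPKM in Cm x L and 245 ± 92.8 RPKM in L x Cm (SD, n = 3 each). The log2 difference, Cm x L minus L x Cm on log2(RPKM + 1), was −4.07 with an SE of 0.59, and it ran from −4.82 to −3.69 when any 1 library was left out. About 75 to 367 reads in Cm x L and 1456 to 3992 reads in L x Cm lay behind these values.

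LBD5, the relative of LBD8, is not one of the 8 and was tested with all other loci. It had 4.33, 6.80 and 31.6 RPKM in Cm x L, against 91.7, 54.6 and 89.5 RPKM in L x Cm. Again Cm x L replicate 3 was the highest of its cross and the crosses did not overlap. LBD5 was lower in Cm x L by 2.81 on the log2 scale (SE 0.60, limma adjusted p = 0.017 over all tested loci), a call that was lost without Cm x L replicate 1 and without L x Cm replicate 1. Per length, LBD8 stood at 1.66, 1.08 and 1.22 times LBD5 in Cm x L and at 3.72, 2.86 and 2.65 times LBD5 in L x Cm. LBD8 exceeded LBD5 in all 6 libraries, by more in L x Cm.

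The 250 bases before the annotated starts of LBD8 and LBD5 are shown because both genes, which lie on different chromosomes, were lower in every Cm x L library than in any L x Cm library. They are from RefSeq TAIR10.1, at chr2:8452950-8453199 for LBD8 and chr1:13422304-13422553 for LBD5, both on the plus strand and 5′ to 3′. Capitals mark TTGACC, a form of the W-box, the element bound by WRKY factors.
LBD8: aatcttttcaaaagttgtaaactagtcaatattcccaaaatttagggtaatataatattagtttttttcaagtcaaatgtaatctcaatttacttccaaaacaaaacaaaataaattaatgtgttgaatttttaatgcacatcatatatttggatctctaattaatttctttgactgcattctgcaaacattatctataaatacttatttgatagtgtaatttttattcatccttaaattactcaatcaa
LBD5: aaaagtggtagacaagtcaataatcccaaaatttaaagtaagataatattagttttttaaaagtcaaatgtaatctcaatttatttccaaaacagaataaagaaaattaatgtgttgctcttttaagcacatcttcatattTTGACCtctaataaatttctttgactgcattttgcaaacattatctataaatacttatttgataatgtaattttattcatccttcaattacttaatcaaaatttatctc
They were identical at 214 of 239 aligned bases (89.5%). TTGACC, searched on both strands, stood 109 bases before the start of LBD5, was not in the LBD8 window, and was in 12.2% of 26711 promoters of the same length. Other forms of the W-box were not searched, and TTGACT, which is in both windows, is not marked. The windows of LBD8 and LBD42 held none of the other motifs searched: CACGTG (the G-box), CATGCA (the RY element), GCGGCG (the motif bound by LOB), TGTCTC (the auxin response element), AAACCCTA (the telo-box) and CCGAC (the core of the drought response element). The last 4 were in none of the 8 windows and in 1.54%, 10.9%, 4.44% and 11.9% of all promoters, in that order. CATGCA, in 8.51% of all promoters, was in those of LBD37 and LBD40, 72 and 81 bases before the start. CACGTG, in 6.58%, was in that of LBD41, 154 bases before the start. A match is a description of letters and not a bound site.

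LBD42 (AT1G68510, chr1:25706882-25708503, plus strand), a class II gene, went the other way. It had 236, 202 and 41.7 RPKM in Cm x L, against 39.1, 11.4 and 14.6 RPKM in L x Cm. Replicates 1 and 2 of Cm x L stood far above every L x Cm library, whereas Cm x L replicate 3 was close to L x Cm replicate 1. The means were 160 ± 104 RPKM in Cm x L and 21.7 ± 15.2 RPKM in L x Cm (SD, n = 3 each). The log2 difference was 2.69 with an SE of 0.68, and ran from 2.24 to 3.48 with 1 library left out. LBD42 stood at 32.8, 27.5 and 1.08 times LBD8 in Cm x L and at 0.115, 0.0727 and 0.0614 times LBD8 in L x Cm. A stretch of 329 bases of LBD42 overlaps AT1G68520 on the opposite strand, which had 8.68, 15.8 and 8.54 RPKM in Cm x L and 8.15, 11.4 and 5.91 RPKM in L x Cm. Use of strand in counting is not given in the sources used here, so reads in the overlap cannot be told apart.

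LBD40 (AT1G67100, chr1:25053673-25054864, plus strand) and LBD41 (AT3G02550, chr3:536500-538126, minus strand) encode the closest class II pair outside LBD37 and LBD38. LBD40, known as a gene repressed by gibberellin, had 2.00, 1.99 and 0.566 RPKM in Cm x L, against 19.0, 12.5 and 9.71 RPKM in L x Cm. Every Cm x L library was below every L x Cm library. The means were 1.52 ± 0.827 RPKM in Cm x L and 13.7 ± 4.75 RPKM in L x Cm (SD, n = 3 each), a log2 difference of −2.56 with an SE of 0.38. LBD41 had 24.6, 36.3 and 53.8 RPKM in Cm x L, against 46.5, 41.5 and 41.8 RPKM in L x Cm. The crosses overlapped, with Cm x L holding both the lowest and the highest library. Its log2 difference was −0.24 with an SE of 0.26, and it ran from −0.52 to 0.03 with 1 library left out. Per length, LBD40 stood at 0.0815, 0.0549 and 0.0105 times LBD41 in Cm x L and at 0.408, 0.302 and 0.232 times LBD41 in L x Cm, so LBD41 was the higher of the pair in all 6 libraries.

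LBD37 (AT5G67420, chr5:26903866-26906524, minus strand), LBD38 (AT3G49940, chr3:18514266-18516131, plus strand) and LBD39 (AT4G37540, chr4:17639393-17640925, minus strand), the nitrogen-linked repressors, were low in both directions. LBD37 had 4.21, 7.76 and 6.56 RPKM in Cm x L, against 7.86, 8.99 and 7.37 RPKM in L x Cm. LBD38 had 2.21, 4.94 and 2.48 RPKM in Cm x L, against 5.31, 5.99 and 7.53 RPKM in L x Cm. LBD39 had 0.825, 2.26 and 1.59 RPKM in Cm x L, against 6.76, 3.10 and 1.90 RPKM in L x Cm. LBD38 did not overlap between crosses, by a small gap, and the other two did. The log2 differences were −0.37 (SE 0.27) for LBD37, −0.84 (SE 0.33) for LBD38 and −0.86 (SE 0.45) for LBD39. LBD37 exceeded LBD38 in 5 of 6 libraries, at 1.57 to 2.65 times in Cm x L, and was at 0.978 times in L x Cm replicate 3.

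LBD25 (AT3G27650, chr3:10238514-10240648, plus strand), a class I gene with a role in pollen alongside LBD10, had 0.257, 2.42 and 1.41 RPKM in Cm x L, against 4.39, 3.07 and 1.17 RPKM in L x Cm. The crosses overlapped, and the lowest value stood for about 7.52 reads. Its log2 difference was −0.73 with an SE of 0.51. The partner gene LBD10 had 0.241, 0.665 and 0 RPKM in Cm x L, against 9.34, 5.28 and 4.59 RPKM in L x Cm (log2 difference −2.48, SE 0.38, limma adjusted p = 0.0078). Of the other pollen LBD genes, LBD27 was called lower in Cm x L (−1.20, adjusted p = 0.037), whereas LBD22 (−1.12, adjusted p = 0.13) and LBD36 (−1.23, adjusted p = 0.095) were not called by limma. The LBD27 call was kept in 1 of 6 fits that left out a library and was lost with a pseudocount of 0.1, quantile normalization and the replicate block, so it does not set LBD27 apart from the other two. Summed pollen markers, 12 genes, were 138, 763 and 69.7 RPKM in Cm x L and 847, 3073 and 1195 RPKM in L x Cm, with 2 of 12 at 0 in Cm x L replicate 3. Limma called 6 of the 12 lower and 0 higher in Cm x L (10 and 0 at an unadjusted p under 0.05). Over all tested loci, 18.3% were called lower and 6.73% higher. The median log2 difference of the 12 was −2.255, beside −0.22 over all tested loci. The part of pollen RNA in the differences of these LBD genes was not tested.

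**Figure D3:**
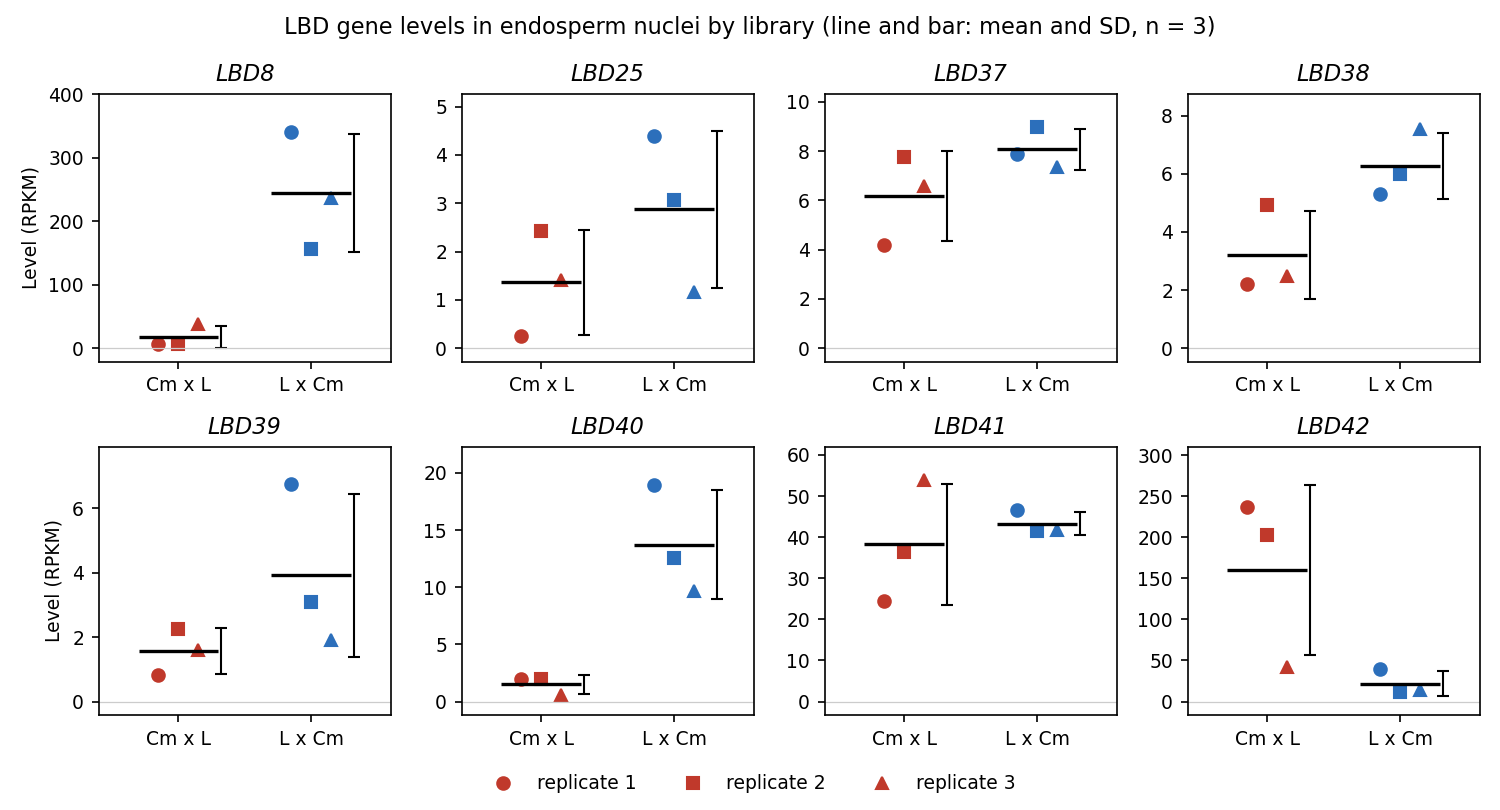
Level of each of the 8 genes in RPKM by library, with Cm x L left of L x Cm, a symbol for each replicate, a line at the mean and a bar of 1 SD (n = 3); each panel has its own scale. LBD8 spans 7.20 to 38.5 RPKM in Cm x L and 156 to 341 RPKM in L x Cm, while LBD42 spans 41.7 to 236 RPKM in Cm x L and 11.4 to 39.1 RPKM in L x Cm.

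In Cm x L the order by mean was LBD42, LBD41, LBD8, LBD37, LBD38, LBD39, LBD40 and LBD25, and every neighbouring pair overlapped in range. In L x Cm it was LBD8, LBD41, LBD42, LBD40, LBD37, LBD38, LBD39 and LBD25. There LBD8 was separate from LBD41, LBD41 from LBD42, and LBD40 from LBD37, and the remaining neighbours overlapped. Of the 8 genes, 4 did not overlap between crosses, 1 above and 3 below in Cm x L, beside 45.5% of the 26620 tested loci. Since these same values chose the genes, nothing is read from that count. The median log2 difference of the 8 was −0.78, beside −0.22 over all tested loci. The differences of LBD25, LBD37 and LBD39 turned to 0.35, 0.020 and 0.14 when libraries were quantile normalized, a scaling under which the median of all loci was 0.016.

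Levels of some cell type markers, though not of whole marker lists, resembled those of LBD8 and LBD42 by library. Summed seed coat markers, 13 genes and none at 0, were 242, 309 and 812 RPKM in Cm x L and 724, 885 and 1032 RPKM in L x Cm. Limma called 3 of the 13 lower and 0 higher in Cm x L (5 lower and 0 higher at an unadjusted p under 0.05). Over all tested loci, the background for this list and the endosperm and embryo lists below, 18.3% were called lower and 6.73% higher. The seed coat counts are near that background. The seed coat gene TT1 had 50.7, 59.0 and 270 RPKM in Cm x L and 370, 401 and 413 RPKM in L x Cm, and the endosperm gene MINI3 had 12.8, 13.3 and 43.4 RPKM in Cm x L and 114, 109 and 129 RPKM in L x Cm. Like LBD8, both had Cm x L replicate 3 above replicates 1 and 2. So did every other seed coat marker except MUM4 and PER36, and every other endosperm marker except FIS2 and ZOU. That order therefore does not set TT1 and MINI3 apart within their lists. Of the 9 endosperm markers, limma called MINI3 (−2.52, adjusted p = 0.0089) and IKU2 (−1.51, adjusted p = 0.042) lower in Cm x L and FIS2 higher (0.61, adjusted p = 0.037), and FWA had a log2 difference of 0.43 (adjusted p = 0.088). Summed embryo markers, 12 genes, were 431, 357 and 165 RPKM in Cm x L and 185, 192 and 175 RPKM in L x Cm, with 2 and 3 of 12 at 0 in Cm x L replicates 1 and 3. That sum rests on the abundant genes WOX8, LEC1, LEC2 and FUS3, and most of the list went the other way: the mean log2(RPKM + 1) of the 12 was 2.72, 2.93 and 2.00 in Cm x L and 3.73, 3.27 and 3.02 in L x Cm. By limma LEC1 and LEC2 were higher in Cm x L, and WOX9, STM, CUC3, PLT1, PLT2 and DRN were lower, by 2.03 (DRN) to 3.08 (CUC3) on the log2 scale. The embryo regulator LEC2 had 46.4, 32.5 and 19.3 RPKM in Cm x L and 16.0, 8.29 and 6.09 RPKM in L x Cm, with replicate 3 the lowest of Cm x L, as for LBD42. The part of these markers' cell types in the LBD values was not tested.

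Genes most like LBD8 and LBD42 were found by Pearson correlation of log2(RPKM + 1) over the 6 libraries, among 17164 loci whose mean reached 5 RPKM. The points share the split into crosses, and the correlations are a description. For LBD8 the 5 closest were AT4G39270, AT1G53110, AT4G35733, AT1G11440 and AT3G26590 (1.00 to 0.997). The size of the difference was not alike, since AT4G39270 had 7.98, 8.04 and 10.9 RPKM in Cm x L and 16.2, 13.9 and 15.2 RPKM in L x Cm. MINI3 was at rank 38 (0.988) and LBD5 at rank 90 (0.982). The other endosperm markers compared ran from 0.921 (AGL62) to −0.936 (FIS2), and only FIS2 and FWA (−0.594) were negative. Markers of other cell types reached similar values, so the likeness was not to endosperm genes in particular. Seed coat markers ran from 0.954 (MUM2) and 0.945 (TT1) down to 0.246 (MUM4). Pollen markers ran from 0.884 (ANX1) to 0.412 (AGP11), and embryo markers from 0.901 (STM) to −0.964 (LEC1). For LBD42 the closest was RGP3, a reversibly glycosylated polypeptide, with 285, 278 and 73.5 RPKM in Cm x L and 61.2, 24.2 and 26.3 RPKM in L x Cm (0.998), followed by AT2G38160, AT3G46680, AT3G03773 and AT5G55450.

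Among the 35 other LBD family genes, 29 were tested, 15 were called lower in Cm x L and 0 higher (limma, adjusted p under 0.05). At an unadjusted p under 0.05, 18 were lower and 1 was higher. The share of all tested loci called lower was 18.3%, and that called higher 6.73%. Low genes were called lower more often across the whole table: 29.3% of loci with a mean under 10 RPKM were called lower, beside 12 of 23 family genes at that level, and 7.25% of loci with a mean from 10 RPKM up, beside 3 of 6, namely LBD5, LBD15 and LBD35. The median log2 difference of the tested family genes was −1.28. With a minimum mean of 5 RPKM 2 were called lower, and with quantile normalization 4; 3 of the 15 calls (LBD10, LBD32 and LBD34) were kept in all 6 fits that left out 1 library.

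LBD20, known as a jasmonate-linked susceptibility gene in roots, had the highest mean of the family over the 6 libraries, with 178, 195 and 178 RPKM in Cm x L and 70.0, 125 and 155 RPKM in L x Cm. Its log2 difference of 0.72 did not pass the test (adjusted p = 0.091). LBD35 had 33.7, 33.2 and 128 RPKM in Cm x L, against 146, 158 and 241 RPKM in L x Cm. It was lower in Cm x L by 1.74 on the log2 scale (SE 0.50, adjusted p = 0.039), with Cm x L replicate 3 just below the L x Cm libraries, and the call was kept in 1 of 6 fits that left out a library. LBD34 averaged 0.451 ± 0.303 RPKM in Cm x L and 8.84 ± 3.11 RPKM in L x Cm (SD, n = 3 each; −2.74, adjusted p = 0.0060). LBD32 averaged 1.36 ± 0.788 RPKM in Cm x L and 12.0 ± 0.888 RPKM in L x Cm (−2.52, adjusted p = 0.0058). LBD19 (−2.42, adjusted p = 0.027), LBD28 (−1.90, adjusted p = 0.049) and LBD33 (−1.74, adjusted p = 0.024), the last known from lateral roots, were also lower.

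**Figure D4:**
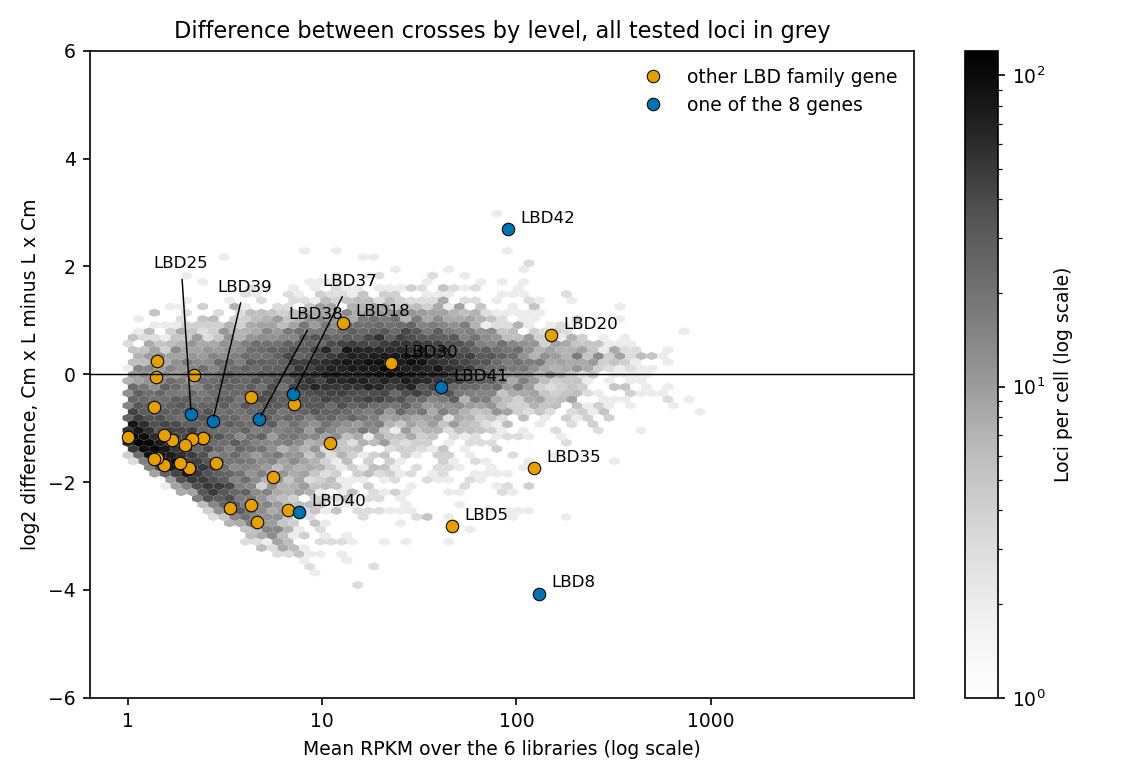
Log2 difference, Cm x L minus L x Cm, against mean RPKM over the 6 libraries on a log scale; grey cells count all 26620 tested loci, blue points are the 8 genes and orange points the 29 other tested LBD genes. LBD8 (−4.07) and LBD42 (2.69) lie at opposite edges of the cloud at means of 131 and 90.9 RPKM, and the low genes lean to negative differences together with the low loci of the whole table.

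Genes of nitrate uptake, assimilation and its regulators, and the anthocyanin regulators PAP1 and PAP2, were examined as the known pathways of LBD37, LBD38 and LBD39. Of 28 genes, 27 were tested. In Cm x L 3 rose and 6 fell relative to L x Cm, and 18 were not called, with a median log2 difference of −0.62. The share of all loci called was 6.73% higher and 18.3% lower. At a mean under 10 RPKM, 6 of 18 list genes were called lower, beside 29.3% of tested loci at that level. These counts are near the background, so the genes below are given as single genes and not as a result about the list. NRT2.7, the nitrate transporter of seed vacuoles, had 246, 151 and 43.0 RPKM in Cm x L, against 12.7, 15.1 and 16.1 RPKM in L x Cm (2.92, SE 0.54, limma adjusted p = 0.012). Its Cm x L replicate 3 was the lowest of that cross, as for LBD42. HHO3, a repressor of nitrate-starvation genes, averaged 27.8 ± 0.989 RPKM in Cm x L and 7.26 ± 1.71 RPKM in L x Cm (SD, n = 3 each; 1.82, adjusted p = 0.0053). G6PD2, a plastid enzyme of the pentose phosphate pathway, was higher as well (0.78, adjusted p = 0.032).

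The 6 lower genes were all at a mean under 10 RPKM. NRT2.5, a high-affinity transporter of nitrogen-starved plants, averaged 0.771 ± 0.425 RPKM in Cm x L and 10.0 ± 1.86 RPKM in L x Cm (SD, n = 3 each; −2.65, adjusted p = 0.0056). HRS1 (−2.53, adjusted p = 0.0058) and HHO1 (−1.90, adjusted p = 0.020), relatives of HHO3, were lower where HHO3 was higher. The bZIP factors TGA4 (−1.35, adjusted p = 0.016) and TGA1 (−1.20, adjusted p = 0.048) and the nitrate reductase gene NIA1 (−1.05, adjusted p = 0.047) were lower too. The TGA1 call was kept in 0 of 6 fits that left out a library, and those of NIA1 and G6PD2 in 2 of 6. CIPK23 (0.27, adjusted p = 0.28) and ASN2 (0.58, adjusted p = 0.079), were the most abundant genes not called. CIPK23 averaged 55.3 ± 4.92 RPKM in Cm x L and 46.1 ± 8.75 RPKM in L x Cm, and ASN2 averaged 41.5 ± 11.6 RPKM in Cm x L and 26.8 ± 2.97 RPKM in L x Cm (SD, n = 3 each). PAP1 had 0.487 to 0.938 RPKM in Cm x L and 0.929 to 3.38 RPKM in L x Cm, and was not called (adjusted p = 0.14). Of the 9 calls 4, those of NRT2.5, NRT2.7, HRS1 and HHO3, were kept in all 6 fits that left out a library; with a minimum mean of 5 RPKM 1 gene was called lower, and after quantile normalization 2.

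The low-oxygen list, chosen for LBD41, had 22 genes, all tested, with 1 higher, 4 lower and 17 not called, and a median log2 difference of −0.33. Beside 6.73% of all tested loci called higher and 18.3% called lower, these counts are near the background. HRE2, an ethylene response factor of hypoxia, averaged 0.291 ± 0.260 RPKM in Cm x L and 11.9 ± 2.40 RPKM in L x Cm (SD, n = 3 each; −3.32, SE 0.32, limma adjusted p = 0.0047). SAD6, a desaturase gene (−2.51, adjusted p = 0.011), RBOHD, an NADPH oxidase gene (−2.37, adjusted p = 0.0086), and HRA1, an attenuator of the response (−1.44, adjusted p = 0.015), were lower as well. RAP2.3, an oxygen-sensing factor, had 201, 193 and 69.5 RPKM in Cm x L, against 36.6, 48.1 and 73.5 RPKM in L x Cm (1.44, adjusted p = 0.043), with replicate 3 of Cm x L inside the range of L x Cm. That call was lost in 4 of 6 fits that left out a library, and that of HRA1 without L x Cm replicate 1 and without L x Cm replicate 2, while HRE2, SAD6 and RBOHD were called in all 6. The related RAP2.2 averaged 47.5 ± 9.97 RPKM in Cm x L and 47.0 ± 3.53 RPKM in L x Cm (adjusted p = 0.99), and RAP2.12 averaged 38.5 ± 4.49 RPKM in Cm x L and 49.3 ± 10.6 RPKM in L x Cm (adjusted p = 0.22).

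**Figure D5:**
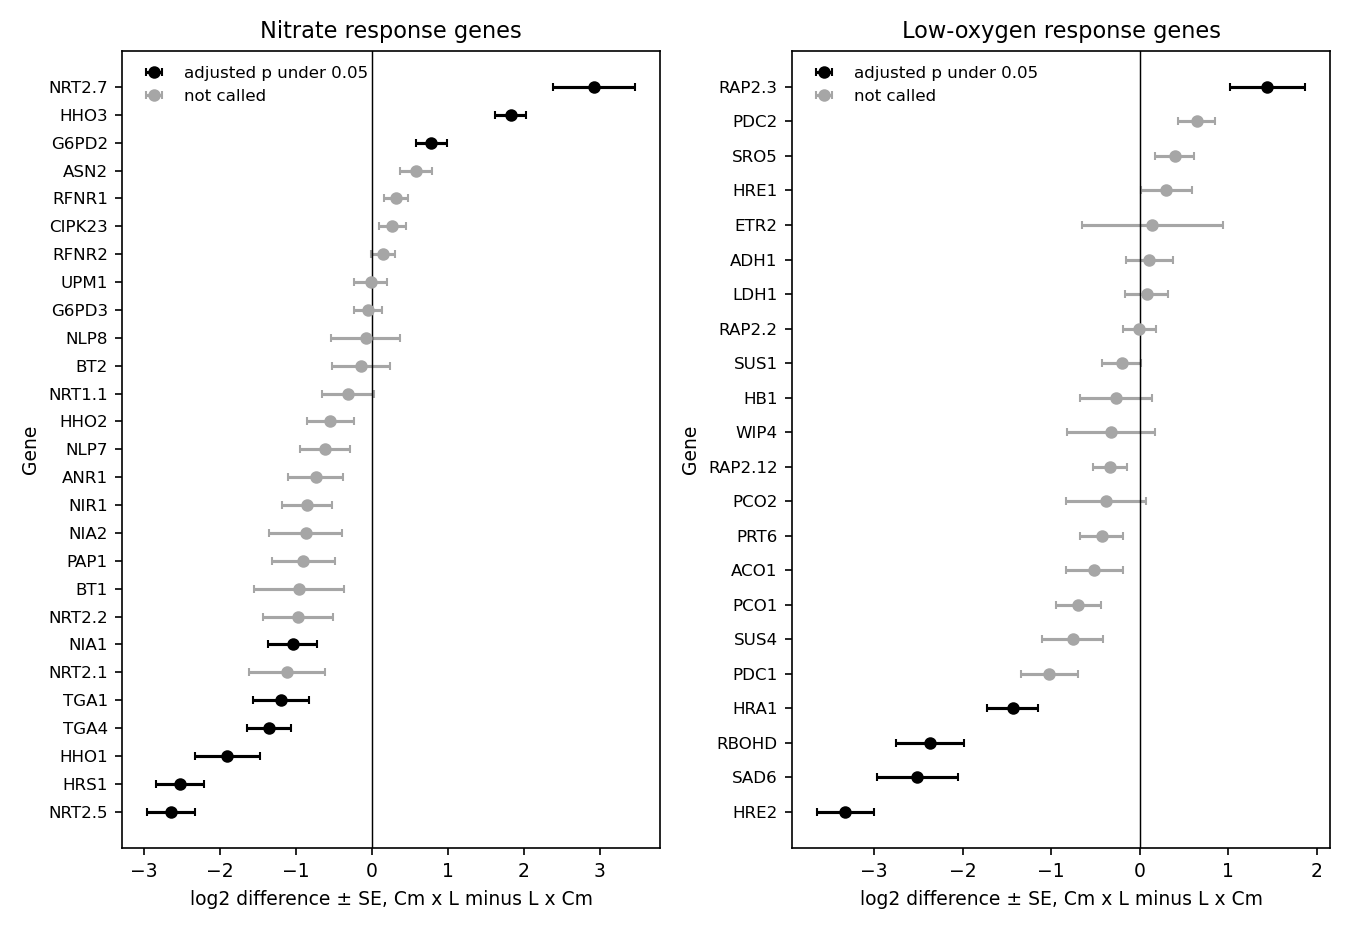
Log2 difference ± SE, Cm x L minus L x Cm, for the tested genes of the nitrate list (left, 27 genes) and the low-oxygen list (right, 22 genes); black points have a limma adjusted p under 0.05. NRT2.7, HHO3, G6PD2 and RAP2.3 are the black points right of 0, and HRE2 lies farthest left at −3.32.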

How the data were processed

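Poly(A) RNA of INTACT-purified endosperm nuclei was sequenced in 6 libraries, 3 per cross, from RNA extracted with the mirVana kit, per the labels' protocols. The submitters' processing notes name TopHat2 2.1.0 and TAIR10, and the sources used here give neither the counting tool nor the strand setting. Values in the deposited table are RPKM made by the authors, with no scaling between libraries beyond the library total. Columns were matched to samples by parent order and replicate number, and 0 were left unmapped. Read totals were recovered from the steps between low RPKM values of 567 to 1924 pseudogenes per library, 93.1% to 97.8% of which came out whole within 0.02 reads. Read numbers behind a gene used RefSeq exon lengths and are approximate, and cover counting error only.

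Loci whose mean reached 1 RPKM were tested on log2(RPKM + 1) with limma 3.58.1 in R 4.3.3 (moderated 2-sided test with an intensity trend, Benjamini-Hochberg adjustment at 0.05 over all tested loci), cross being the only term. The values are RPKM and not counts, so no count model was used. A fold on this scale understates the change of low genes, and an exact test of 3 against 3 libraries cannot go below p = 0.10. The 8 genes and all lists were chosen with earlier results of these data known. Named genes are the 8, the called genes of each list up to 8 by size of difference, the most abundant others (3 LBD genes, 2 genes not called per pathway list), the pollen LBD genes and the 5 loci most like LBD8 and LBD42. Sequences and names came from RefSeq TAIR10.1, to which 32835 of 33602 loci matched. Python 3.11.15 with pandas 2.3.3, Biopython 1.88 and matplotlib 3.10.9 prepared values and figures. Alternatives were other pseudocounts, filters and scalings, no trend, a replicate block and each library left out.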

Additional observations from a re-analysis of the deposited data

How the results depend on the processing

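The direction of the difference was kept for LBD8, LBD40 and LBD42 in every alternative. Quantile normalization moved LBD25 to 0.35, LBD37 to 0.020, LBD38 to −0.091, LBD39 to 0.14 and LBD40 to −2.02, and LBD40 was −3.22 with a pseudocount of 0.1 and −1.50 with a pseudocount of 5. Loci called lower in Cm x L numbered 4870, against 1322 with a minimum mean of 5 RPKM and 1864 after quantile normalization; without 1 library they ran from 1243 to 5231, and loci called higher from 359 to 2280, beside 1792. Of all calls, those lower in Cm x L made up 73.1%, 49.0% with the minimum of 5, 48.9% after quantile normalization, 81.9% after scaling to the median of loci with means from 20 RPKM up (which moved the median of all loci to −0.33) and 80.5% without the trend. Other LBD genes called lower numbered 15, against 2 (minimum of 5), 4 (quantile) and 3 to 13 without 1 library; those called higher ran from 0 to 2, being LBD18 and LBD30 without Cm x L replicate 3 and LBD20 without L x Cm replicate 3. Nitrate genes called lower numbered 6, against 1 (minimum of 5), 2 (quantile) and 2 to 8 without 1 library. Low-oxygen genes called higher numbered 1, against 0 with a pseudocount of 0.1, the minimum of 5, quantile normalization, median scaling, no trend or the replicate block, and 0 to 2 without 1 library. The cause was not tested. LBD25, LBD38 and LBD39 have no value under the minimum of 5.

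Deviations of same-numbered libraries of the crosses correlated at 0.081, 0.146 and 0.204, and those of differently numbered libraries at −0.227 to 0.124. These values cannot decide whether the numbers are pairs, because the ranges overlap and rest on few libraries. The labels do not state a pairing, so the numbers were not taken as pairs. With the replicate block, 1963 loci were higher and 4887 lower, and 13 other LBD genes, 5 nitrate genes and 4 low-oxygen genes were lower.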
